A study of Mus musculus with 12 samples.

Results

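The genes of cholesterol synthesis, uptake, storage and efflux were followed in Carm1 knockout (KO) and wild-type (WT) mouse embryonic fibroblasts, with and without glucose. Their 31 symbols were listed by function, and all 31 were among the 23366 gene symbols of the count table. In 30 of them reads were counted, and these 30 were also among the 13882 genes that passed the filter on low counts. Hmgcs1, which makes the precursor of mevalonate, was listed at 0 in all 8 libraries. Msmo1 stands in the table under its older symbol Sc4mol. The listed genes comprised 18 synthesis enzymes, 5 genes of SREBP control, 2 of uptake and sterol transport, 2 of esterification and 4 of efflux.

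The fibroblasts, connective tissue cells grown from mouse embryos, were labelled C57BL/6 at passages 3 to 5 in all groups. Starved KO cells and starved WT cells were taken after 18 h in glucose-free medium with 10% dialyzed serum, and rich-medium KO cells and rich-medium WT cells at 0 h in medium with 10% fetal bovine serum. Carm1 encodes an arginine methyltransferase of histone H3 and other proteins that acts as a transcriptional coactivator. The comparisons ask how sterol genes respond to loss of glucose and whether that response differs without CARM1. No title names a rich-medium library at 18 h, so glucose, serum dialysis and time in culture cannot be told apart.

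Cells make cholesterol from acetyl-CoA through mevalonate, isoprenoids, squalene and lanosterol. The transcription factor SREBP2, made from Srebf2, turns on most enzymes of this route and sterol uptake genes. SCAP carries SREBP precursors out of the endoplasmic reticulum when sterol is low, and the INSIG proteins hold it back when sterol is high. When sterol derivatives accumulate, the LXR receptors (Nr1h2 and Nr1h3) turn on the efflux pumps ABCA1 and ABCG1 and the ubiquitin ligase MYLIP. The SOAT enzymes store excess cholesterol as esters in the endoplasmic reticulum.

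Each group held 2 libraries, and total counts ran from 8447014 in KO rich replicate 1 to 28155431 in a starved WT library. At these depths 3 counts correspond to 0.369 and 0.104 CPM (counts scaled to library size). The labels do not state that the replicates were separate cultures, and the p-values therefore cover the spread of these libraries alone, possibly a technical one. Carm1 had 53.9 and 58.6 CPM in starved KO cells, 48.1 and 70.8 CPM in rich KO cells, 176 and 164 CPM in starved WT cells and 207 and 204 CPM in rich WT cells. The KO rich replicates stood apart from each other: over the 30 genes the log2 ratio of the replicates had an SD of 0.81 in rich KO cells, 0.19 in starved KO cells, 0.19 in starved WT cells and 0.21 in rich WT cells. Over all genes tested the SD was 0.91, 0.36, 0.34 and 0.35, in the same order. The gap in rich KO cells was thus not particular to the 30 genes. In rich KO cells 7 of the 30 genes (Mvk, Tm7sf2, Srebf1, Srebf2, Scap, Nr1h2 and Nr1h3) differed more than 2-fold between replicates, each lower in replicate 1, against 0 of 30 in the other groups. The genotypes also differed in cell markers. The summed level of 10 fibroblast markers was 16449 to 16934 CPM in starved KO cells, 15532 to 18718 in rich KO cells, 7865 to 8074 in starved WT cells and 10953 to 11033 in rich WT cells. Of these, 7 were above 1 CPM in every library, while Thy1, Dcn and Lum were below 1 CPM in every WT library, Lum at 0. Fn1 was the largest part in KO cells, at 9078 to 10588 CPM, against 2594 to 3419 in WT cells. Col1a1 alone was higher in every WT library (1400 to 2807 CPM) than in every KO library (636 to 1206). The summed level of 5 endothelial markers was 242 to 245 CPM in starved KO cells, 132 to 158 in rich KO cells, 3.79 to 5.02 in starved WT cells and 2.09 to 2.28 in rich WT cells, with Emcn at 0 in all libraries. Nearly all of the KO sum was Cdh5, at 126 to 240 CPM in KO cells and 0 to 0.0713 in WT cells. Pecam1 was also higher in KO cells, Kdr went the other way (0 to 0.0861 CPM in KO cells, 1.78 to 4.50 in WT cells) and Tek overlapped. The sum of 6 leukocyte and macrophage markers was 23.9 to 26.9 CPM in starved KO cells and 12.9 to 33.8 in rich KO cells. It was 7.83 to 7.89 in starved WT cells and 5.58 to 5.67 in rich WT cells. Of the 6 markers, 2 (Cd14 and Cd68) were above 1 CPM in every library. Cd14 was the largest part in KO cells, at 7.999 to 27.1 CPM, against 2.53 to 3.44 in WT cells. Cd68 alone was higher in every WT library (2.04 to 5.09 CPM) than in every KO library (1.24 to 1.72). A difference between KO and WT cells and a difference between the cell populations therefore cannot be told apart, nor can fewer cells of a type and less RNA per cell.

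Promoter windows from RefSeq (GRCm38.p6, 250 bases before to 50 after a start) were matched for 25 of the 31 genes, 15 of them synthesis enzymes. Windows are shown for 5 genes whose starvation response differed between genotypes, Acat2, Mvd, Hsd17b7, Insig1 and Abca1, and for Cyp51, for which no such difference was called in the fit of all 8 libraries. The windows are at chr17:12960676-12960975 (minus strand) for Acat2, chr8:122443373-122443672 (minus strand) for Mvd, chr1:169969156-169969455 (minus strand) for Hsd17b7, chr5:4104648-4104947 (minus strand) for Cyp51, chr5:28071162-28071461 (plus strand) for Insig1 and chr4:53159846-53160145 (minus strand) for Abca1. Capitals mark the E-box CACGTG, the box CCAAT on either strand and the core CACCCCAC of the sterol regulatory element.
Acat2: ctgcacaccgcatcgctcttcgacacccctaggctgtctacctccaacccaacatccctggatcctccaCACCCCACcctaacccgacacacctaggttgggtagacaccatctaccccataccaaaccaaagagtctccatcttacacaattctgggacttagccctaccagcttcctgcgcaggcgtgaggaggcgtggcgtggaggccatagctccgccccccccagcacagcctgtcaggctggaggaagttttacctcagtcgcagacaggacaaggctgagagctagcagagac
Mvd: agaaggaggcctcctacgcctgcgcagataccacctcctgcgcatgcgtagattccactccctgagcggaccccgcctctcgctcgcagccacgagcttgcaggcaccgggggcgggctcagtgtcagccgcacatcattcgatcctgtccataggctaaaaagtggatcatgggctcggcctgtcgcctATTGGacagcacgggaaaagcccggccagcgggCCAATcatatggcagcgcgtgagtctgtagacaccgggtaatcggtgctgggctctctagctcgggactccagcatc
Hsd17b7: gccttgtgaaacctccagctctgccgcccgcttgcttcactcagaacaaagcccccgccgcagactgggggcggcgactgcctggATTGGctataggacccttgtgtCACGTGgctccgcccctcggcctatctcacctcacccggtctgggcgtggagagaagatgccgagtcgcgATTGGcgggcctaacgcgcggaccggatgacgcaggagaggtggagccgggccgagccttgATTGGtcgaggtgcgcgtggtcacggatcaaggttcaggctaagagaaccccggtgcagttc
Cyp51: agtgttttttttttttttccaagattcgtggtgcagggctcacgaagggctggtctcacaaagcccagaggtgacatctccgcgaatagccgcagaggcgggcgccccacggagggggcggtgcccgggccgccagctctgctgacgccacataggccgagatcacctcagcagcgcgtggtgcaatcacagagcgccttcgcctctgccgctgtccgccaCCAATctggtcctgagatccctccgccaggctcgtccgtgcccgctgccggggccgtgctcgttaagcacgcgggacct
Insig1: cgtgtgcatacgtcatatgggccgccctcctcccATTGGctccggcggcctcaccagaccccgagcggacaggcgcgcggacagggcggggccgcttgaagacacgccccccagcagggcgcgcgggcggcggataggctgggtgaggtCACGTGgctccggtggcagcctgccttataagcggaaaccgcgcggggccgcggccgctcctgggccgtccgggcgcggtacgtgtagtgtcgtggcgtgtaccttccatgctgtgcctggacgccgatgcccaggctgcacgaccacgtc
Abca1: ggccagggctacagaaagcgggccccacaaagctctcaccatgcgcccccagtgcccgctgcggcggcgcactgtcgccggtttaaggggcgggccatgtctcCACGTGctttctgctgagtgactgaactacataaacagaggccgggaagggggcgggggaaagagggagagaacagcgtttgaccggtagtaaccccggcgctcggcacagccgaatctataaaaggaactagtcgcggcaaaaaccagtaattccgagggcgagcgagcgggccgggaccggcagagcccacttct

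The box CCAAT, which the factor NF-Y binds and which often stands beside SREBP sites, was found on either strand in 14 of 15 synthesis enzymes with a window (93.3%), in 6 of 10 other listed genes (60.0%) and in 43.5% of the 10089 genes tested that had a window. The Sp1 box GGGCGG was found in as many synthesis enzymes, 14 of 15 (93.3%), in 80.0% of the other listed genes and 67.8% of genes tested. The sterol regulatory element in the exact form TCACNCCAC was found in Hmgcs1 alone among the synthesis enzymes (6.67%), in 0 of the 10 other genes and in 1.42% of genes tested. Its core CACCCCAC was found in Acat2 and Hmgcs1 (13.3% of synthesis enzymes), in 0 of the 10 others and in 3.83% of genes tested. In Hmgcs1 the core overlapped the longer element, the sole overlap between different motifs in the windows of the listed genes. The E-box CACGTG was found in 20.0% of the synthesis enzymes, 30.0% of the others and 11.5% of genes tested. An exact pair of GGTCA copies 5 bases apart, the only LXR pattern searched, was found in 0 of the 25 listed genes and in 0.0496% of genes tested. Among the windows shown, Hsd17b7 held 3 CCAAT boxes on the minus strand, the nearest 12 bases before the start, and Mvd held 2, at 60 and 27 bases before it. The boxes of Cyp51 and Insig1 began 29 and 216 bases before the start. A match is a description of these letters and not a bound site. Only these exact letters were searched, so a window without a match may still hold a site with other letters.

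In starved KO cells, 16 of the 30 genes fell and 2 rose relative to rich KO cells. Synthesis enzymes made up 12 of the 16, and the esterification enzymes Soat1 and Soat2 were the 2 that rose. The 16 are 53.3% of the genes, where 9.77% of all genes tested were called lower and 8.44% higher, 18.2% in all (edgeR's quasi-likelihood test, Benjamini-Hochberg adjusted p under 0.05). The median log2 fold change was -0.82 over the 30 genes and 0 over all genes tested. In starved WT cells, 14 genes fell (46.7%) and 3 rose relative to rich WT cells, where 18% of all genes tested were called lower and 14.8% higher, 32.8% in all. The median there was -0.48 over the 30 genes and 0 over all genes tested. All 14 genes that fell in starved WT cells were among the 16 of KO cells, which also held Mvd and Msmo1. The same overlap over all genes tested was not computed. Soat1 and Soat2 rose in both genotypes. Synthesis enzymes gave 12 falls of 17 tested in KO cells, with a median of -0.96, and 10 of 17 in WT cells, with a median of -0.65. A fit of the 4 KO libraries alone called 0 of the 30 genes by edgeR, and 0 of all genes it tested. Without KO rich replicate 1, 22 fell and 2 rose in KO cells, in a fit that called 49.8% of all genes.

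**Figure D1:**
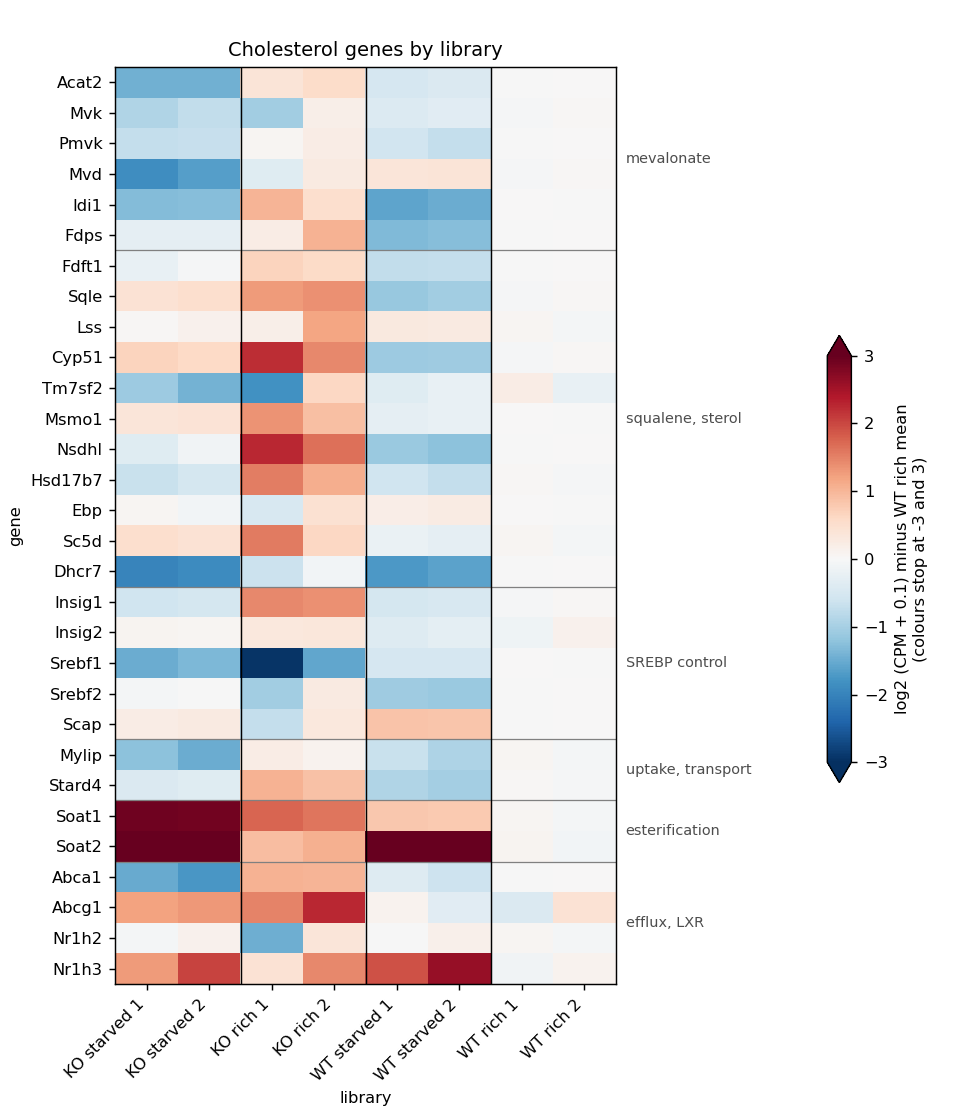
Level of each of the 30 genes in each of the 8 libraries, as log2 of CPM plus a pseudocount of 0.1 minus the mean of the rich WT libraries, with genes grouped by role. The starved WT columns are blue for most synthesis enzymes. The starved KO columns are blue for the mevalonate enzymes and mixed for the sterol enzymes. Of the sterol enzymes, Cyp51, Nsdhl, Hsd17b7 and Sqle are reddest over both rich KO libraries, and Sc5d is redder in KO rich replicate 1 than in replicate 2. Soat1 and Soat2 are red in all starved columns.

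Among the mevalonate enzymes, 5 of the 6 tested fell in KO cells and 4 of 6 in WT cells. Acat2, which joins acetyl-CoA units in the first step, had 48.8 and 48.7 CPM in starved KO cells, 172 and 193 CPM in rich KO cells, 92.8 and 98.6 CPM in starved WT cells and 131 and 134 CPM in rich WT cells. The starved libraries lay below the rich ones in both genotypes without overlap, and starved KO cells were lowest. Its log2 fold change was -1.91 ± 0.12 (SE, adjusted p = 0.000557) in KO cells and -0.47 ± 0.12 (adjusted p = 0.0228) in WT cells, the WT call being lost in 6 of 8 fits that each left out a library. Acat3, a near-identical neighbour of Acat2 with which reads could be shared, had 124 to 180 CPM over the 8 libraries, which makes the level of Acat2 uncertain.

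Mvd, the decarboxylase that makes isopentenyl diphosphate, had 11.4 and 13.2 CPM in starved KO cells, 32.1 and 49.9 CPM in rich KO cells, 53.6 and 54.7 CPM in starved WT cells and 40.4 and 42.7 CPM in rich WT cells. It was low in starved KO cells alone, and starved WT cells had the highest values. The log2 fold change was -1.75 ± 0.22 (adjusted p = 0.00403) in KO cells and 0.38 ± 0.21 (adjusted p = 0.215) in WT cells. The lncRNA gene Gm51557 overlaps Mvd by 3213 bases in the RefSeq annotation, and whether counting used strand is not known here. The same holds for Insig1, which the lncRNA gene Gm35223 overlaps by 7251 bases, and for Lss, which 4930483K19Rik overlaps by 11269 bases. Of the other mevalonate enzymes, Pmvk, Idi1 and Fdps fell in both genotypes, with log2 fold changes of -0.85, -2.08 and -0.96 in KO cells and -0.65, -1.53 and -1.31 in WT cells. These enzymes phosphorylate mevalonate phosphate, isomerise isopentenyl diphosphate and make farnesyl diphosphate. Mvk, mevalonate kinase, was not called, at -0.54 in KO cells and -0.38 in WT cells. Without KO rich replicate 1, Mvk stood at -0.99 in KO cells. Its starved KO values, 17.7 and 20.01 CPM, lay between the rich KO values of 15.997 and 37.9 CPM. The sign of its response in KO cells therefore depends on the rich library kept.

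Of the 11 squalene and sterol enzymes, 7 fell in KO cells and 6 in WT cells. Sqle, which oxidises squalene and is a rate-limiting step of the route, had 156 and 163 CPM in starved KO cells, 281 and 298 CPM in rich KO cells, 52.6 and 55.4 CPM in starved WT cells and 112 and 119 CPM in rich WT cells. Starved libraries were below rich ones within each genotype, while every KO library was above every WT library. The log2 fold changes were -0.86 ± 0.12 (adjusted p = 0.0046) in KO cells and -1.09 ± 0.12 (adjusted p = 0.000951) in WT cells.

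Cyp51, the lanosterol demethylase, had 221 and 209 CPM in starved KO cells, 640 and 374 CPM in rich KO cells, 64.4 and 66.2 CPM in starved WT cells and 136 and 141 CPM in rich WT cells. It showed the same order as Sqle, with wide replicates in rich KO cells. The log2 fold change was -1.24 ± 0.24 (adjusted p = 0.0141) in KO cells, -0.78 without KO rich replicate 1, and -1.08 ± 0.24 (adjusted p = 0.0127) in WT cells.

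Nsdhl, an X-linked enzyme that removes the carboxyl group of methylsterols, had 25.4 and 30.5 CPM in starved KO cells, 157 and 103 CPM in rich KO cells, 15.1 and 13.8 CPM in starved WT cells and 32.3 and 33.1 CPM in rich WT cells. Rich KO cells stood above the other groups, which lay within 13.8 to 33.1 CPM. The log2 fold changes were -2.22 ± 0.22 (adjusted p = 0.00181) in KO cells and -1.18 ± 0.22 (adjusted p = 0.00705) in WT cells. Xist, the RNA of the inactive X chromosome, had 0 to 6 counts in KO libraries and 18657 to 23751 in WT libraries, and the part of this difference in the level of Nsdhl was not tested.

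Hsd17b7, a sterol ketoreductase, had 15.3 and 16.9 CPM in starved KO cells, 70.6 and 52.2 CPM in rich KO cells, 16.1 and 14.7 CPM in starved WT cells and 24.96 and 23.7 CPM in rich WT cells. The starved groups overlapped, and the genotypes were apart in rich medium. The log2 fold changes were -1.93 ± 0.19 (adjusted p = 0.00164) in KO cells and -0.66 ± 0.18 (adjusted p = 0.0314) in WT cells. The WT call was lost in 6 of 8 fits that left out a library.

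Fdft1 and Dhcr7, which make squalene and finish cholesterol, also fell in both genotypes, with log2 fold changes of -0.76 and -1.61 in KO cells and -0.73 and -1.67 in WT cells. Fdft1 overlaps Ctsb by 774 bases, so reads of either gene could be counted for the other. Msmo1, the methylsterol oxidase, fell in KO cells (-0.76, adjusted p = 0.0213) and was not called in WT cells (-0.25, adjusted p = 0.281). Lss, Tm7sf2, Ebp and Sc5d were called in neither genotype, and their log2 fold changes ran from -1.26 to -0.08 in KO cells and from -0.31 to 0.28 in WT cells. Without KO rich replicate 1, Lss stood at -1.07, Tm7sf2 at -1.89, Ebp at -0.44 and Sc5d at -0.14 in KO cells. With it they stood at -0.68, -1.26, -0.08 and -0.71. For Tm7sf2 and Ebp the starved KO values lay between the rich KO values, 1.35 and 7.79 CPM and 19.1 and 36.6 CPM. Their sign therefore depends on the rich library kept.

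Leaving out a library ended some of these calls. Without either starved KO library, the falls of Pmvk, Mvd, Fdft1, Sqle, Cyp51 and Dhcr7 in KO cells were no longer called, and those of Fdps and Msmo1 were lost in 6 of the 8 fits. The value for Fdps in KO cells was -1.29 without KO rich replicate 1 and -0.48 without KO rich replicate 2, and that for Msmo1 was -0.50 without KO rich replicate 1. The falls of Acat2, Idi1, Nsdhl and Hsd17b7 in KO cells were called in all 8 fits, as were those of Idi1, Sqle and Dhcr7 in WT cells. The WT falls of Pmvk and Cyp51 were lost without any 1 of the 4 WT libraries, and those of Fdps, Fdft1 and Nsdhl without any of 3 of them.

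**Figure D2:**
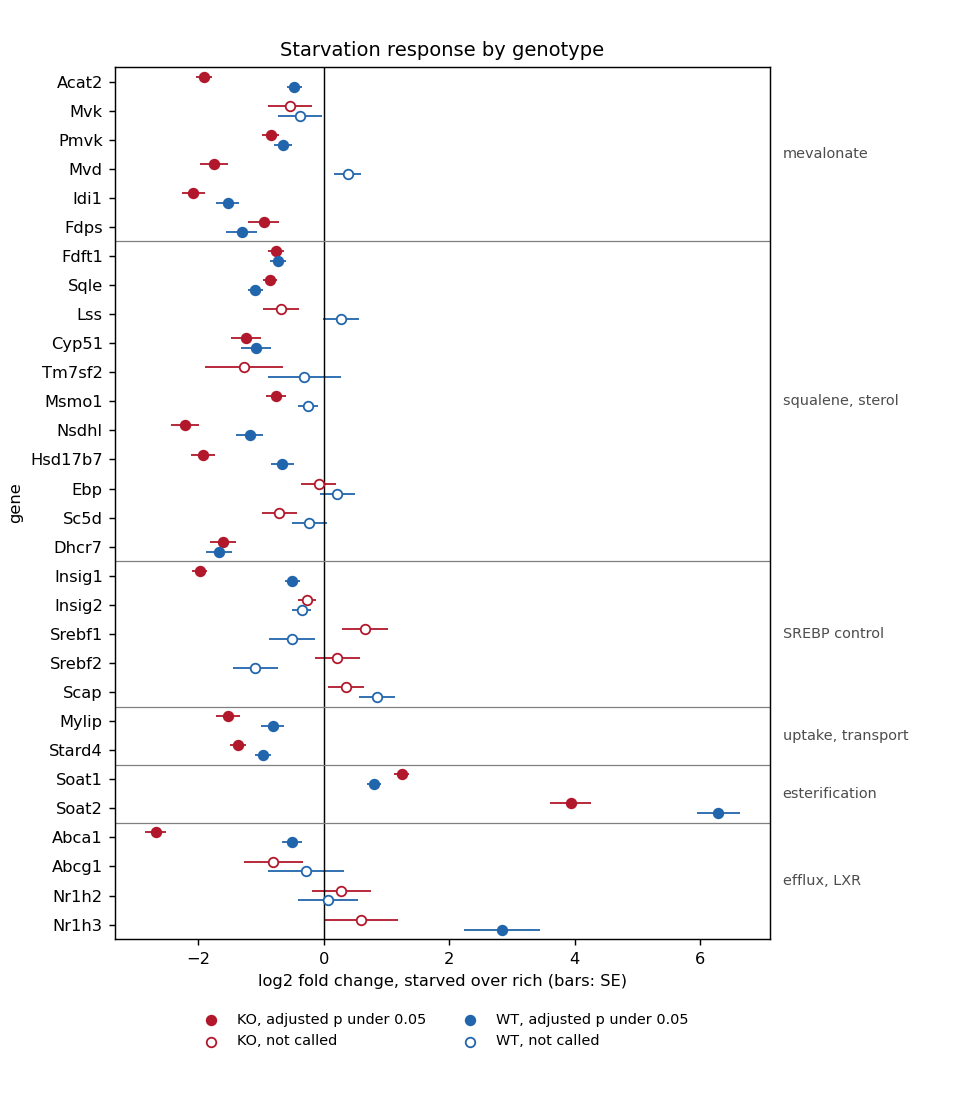
Log2 fold change of starved over rich cells with its SE for each of the 30 genes, in KO and WT cells. Filled points passed the adjusted p threshold of 0.05; most synthesis enzymes lie left of 0 in both genotypes, Mvd, Insig1 and Abca1 lie further left in KO cells, and Soat2 lies furthest right in WT cells.

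Of the 5 genes of SREBP control, only Insig1 was called in a starvation contrast, and it fell in both genotypes. Insig1, which retains SCAP in the endoplasmic reticulum and is itself a target of SREBP, had 34.4 and 36.1 CPM in starved KO cells, 141 and 136 CPM in rich KO cells, 36.3 and 37.6 CPM in starved WT cells and 50.9 and 53.6 CPM in rich WT cells. The starved groups lay side by side and rich KO cells stood far above them. The log2 fold changes were -1.98 ± 0.12 (adjusted p = 0.000508) in KO cells and -0.50 ± 0.12 (adjusted p = 0.0172) in WT cells, the WT call being lost in 6 of 8 fits that left out a library. Insig2, its paralog, had 34.7 and 34.0 CPM in starved KO cells, 41.1 and 41.5 CPM in rich KO cells, 24.99 and 26.6 CPM in starved WT cells and 30.1 and 35.9 CPM in rich WT cells. Its fold changes were not called in KO cells (-0.27, adjusted p = 0.244) or in WT cells (-0.35, adjusted p = 0.103).

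Srebf2 had 305 and 321 CPM in starved KO cells, 155 and 384 CPM in rich KO cells, 152 and 148 CPM in starved WT cells and 318 and 323 CPM in rich WT cells. Starved WT cells were low and the rich KO replicates lay on either side of the starved KO values. The log2 fold change was 0.21 ± 0.36 (adjusted p = 0.718) in KO cells, -0.27 without KO rich replicate 1, and -1.09 ± 0.36 (adjusted p = 0.0546) in WT cells, neither called. Srebf1, which encodes the SREBP1 forms that mainly drive fatty acid genes, had 55.2 and 60.6 CPM in starved KO cells, 19.9 and 52.4 CPM in rich KO cells, 109 and 110 CPM in starved WT cells and 156 and 154 CPM in rich WT cells. All KO values were below all WT values, and neither starvation contrast was called (0.66, adjusted p = 0.259 in KO cells; -0.50, adjusted p = 0.335 in WT cells). The value in KO cells was 0.16 without KO rich replicate 1. Scap had 123 and 126 CPM in starved KO cells, 64.4 and 130 CPM in rich KO cells, 190 and 188 CPM in starved WT cells and 104 and 107 CPM in rich WT cells. It was highest in starved WT cells, without a call (0.35, adjusted p = 0.434 in KO cells; 0.84, adjusted p = 0.0603 in WT cells). Leaving out KO rich replicate 1 gave -0.05 in KO cells.

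Both genes of uptake and sterol transport fell in both genotypes. Stard4, a cytosolic sterol carrier under SREBP control, had 37.1 and 38.9 CPM in starved KO cells, 104 and 92.6 CPM in rich KO cells, 26.7 and 24.4 CPM in starved WT cells and 51.0 and 48.8 CPM in rich WT cells. Starved values were below rich ones in each genotype, with log2 fold changes of -1.37 ± 0.13 (adjusted p = 0.00164) in KO cells and -0.97 ± 0.13 (adjusted p = 0.00227) in WT cells. Mylip, an LXR-induced ubiquitin ligase that marks lipoprotein receptors for degradation, had 6.46 and 5.46 CPM in starved KO cells, 18.0 and 16.6 CPM in rich KO cells, 9.61 and 7.999 CPM in starved WT cells and 16.1 and 14.7 CPM in rich WT cells. The 4 groups did not overlap, though the rich groups lay close together, and the log2 fold changes were -1.53 ± 0.19 (adjusted p = 0.00375) in KO cells and -0.81 ± 0.18 (adjusted p = 0.0151) in WT cells. The KO call of Mylip was lost without KO starved replicate 2 and its WT call without any 1 of the 4 WT libraries.

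The esterification enzymes moved opposite to the synthesis enzymes. Soat1, the widely expressed form, had 357 and 351 CPM in starved KO cells, 157 and 143 CPM in rich KO cells, 82.7 and 81.4 CPM in starved WT cells and 48.7 and 45.5 CPM in rich WT cells. The 4 groups did not overlap, and the log2 fold changes were 1.24 ± 0.12 (adjusted p = 0.0016) in KO cells and 0.80 ± 0.12 (adjusted p = 0.00295) in WT cells. Soat2, the form known from liver and intestine, had 4.17 and 4.22 CPM in starved KO cells, 0.246 and 0.278 CPM in rich KO cells, 7.33 and 6.13 CPM in starved WT cells and 0.0929 and 0.0713 CPM in rich WT cells. It was scarce in rich medium, where the KO libraries held 8 counts in all and the WT libraries 4, and was above 4 CPM in every starved library. Summed over libraries, 202 counts in starved KO cells against 8 in rich KO cells gave a ratio of 15.6 (exact 95% Poisson interval 7.75 to 36.5). In WT cells 361 counts against 4 gave 82.9 (32.1 to 306). These intervals cover counting error only, and the fitted log2 fold changes were 3.94 ± 0.33 (adjusted p = 0.0011) in KO cells and 6.28 ± 0.34 (adjusted p = 0.000132) in WT cells.

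Of the 4 efflux genes, Abca1 fell in both genotypes and Nr1h3 rose in WT cells. Abca1, the pump that loads cholesterol onto apolipoprotein A-I, had 8.46 and 7.19 CPM in starved KO cells, 50.5 and 49.7 CPM in rich KO cells, 18.5 and 15.96 CPM in starved WT cells and 24.1 and 24.8 CPM in rich WT cells. The 4 groups did not overlap, with KO cells at both the lowest and the highest values. The log2 fold changes were -2.68 ± 0.17 (adjusted p = 0.000535) in KO cells and -0.50 ± 0.16 (adjusted p = 0.0464) in WT cells. The WT call was lost in 6 of 8 fits that left out a library, without the filter and with the replicate block.

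Abcg1, which passes cholesterol to lipoprotein particles, was scarce, with 0.802 and 0.861 CPM in starved KO cells, 0.984 and 1.76 CPM in rich KO cells, 0.319 and 0.208 CPM in starved WT cells and 0.186 and 0.428 CPM in rich WT cells. Its starvation contrasts were not called (-0.80, adjusted p = 0.277 in KO cells; -0.28, adjusted p = 0.769 in WT cells). Nr1h3, LXR alpha, had 0.521 and 0.947 CPM in starved KO cells, 0.246 and 0.603 CPM in rich KO cells, 0.877 and 1.49 CPM in starved WT cells and 0.139 and 0.178 CPM in rich WT cells. It rose in WT cells (2.84 ± 0.60, adjusted p = 0.0116) on few counts, a call lost in 3 of 8 fits that left out a library, and was not called in KO cells (0.59, adjusted p = 0.519, and 0.29 without KO rich replicate 1). Nr1h2, LXR beta, had 29.8 and 34.4 CPM in starved KO cells, 11.3 and 40.3 CPM in rich KO cells, 30.9 and 34.5 CPM in starved WT cells and 32.3 and 30.1 CPM in rich WT cells. Apart from KO rich replicate 1 its values lay within 29.8 to 40.3 CPM, and neither contrast was called (0.28 in KO cells and 0.07 in WT cells). Without that library the value in KO cells turned to -0.31. Its starved KO values lay between the rich KO values of 11.3 and 40.3 CPM, so the sign depends on the rich library kept.

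**Figure D3:**
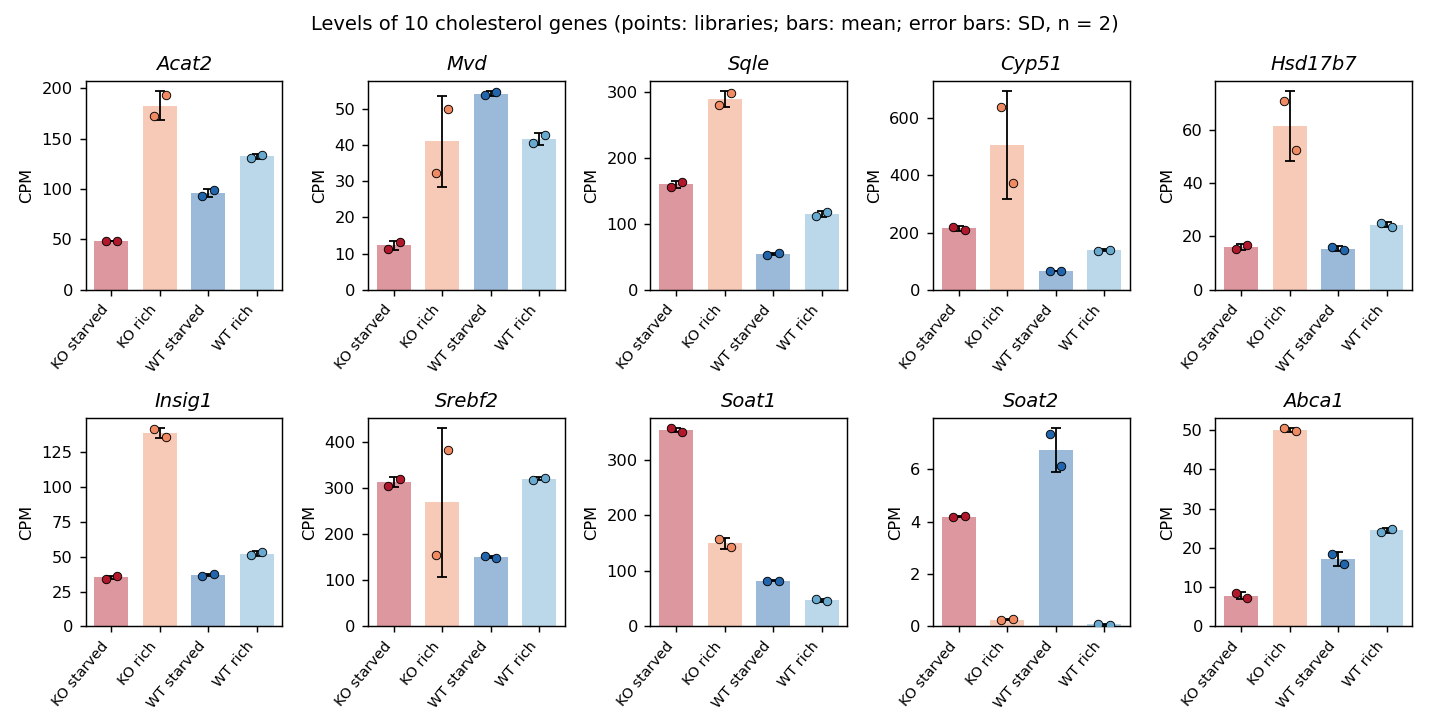
Level in CPM of 10 genes in the 4 groups, with bars at the mean, error bars at the SD (n = 2) and a point for each library. Insig1, Hsd17b7 and Abca1 stand highest in rich KO cells, Mvd is lowest in starved KO cells, and Soat1 is highest in starved KO cells.

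The starvation responses differed between genotypes for 6 of the 30 genes, each with the lower value in KO cells. The 6 were Acat2, Mvd, Hsd17b7, Insig1, Soat2 and Abca1, 20% of the genes, where 5.91% of all genes tested had a difference called lower and 7.43% one called higher, 13.3% in all. None of the 30 had a difference called higher in this fit, though 8 of the 30 values were above 0 and 22 below. The differences of Srebf2 (1.31 ± 0.51, adjusted p = 0.137), Srebf1 (1.16 ± 0.52, adjusted p = 0.188) and Soat1 (0.44 ± 0.17, adjusted p = 0.128) went the other way. They stood at 0.84, 0.69 and 0.55 without KO rich replicate 1. DESeq2 called 1 higher, Srebf2, and limma-voom 2, Srebf1 and Srebf2. The difference of log2 fold changes, KO response minus WT response, was -2.13 ± 0.31 (adjusted p = 0.00684) for Mvd, which fell in KO cells and was not called in WT cells. It was -2.17 ± 0.23 (adjusted p = 0.00225) for Abca1, -1.48 ± 0.17 (adjusted p = 0.00299) for Insig1 and -1.44 ± 0.17 (adjusted p = 0.00324) for Acat2, which fell in both genotypes and by more in KO cells. For Soat2, which rose in both and by more in WT cells, it was -2.35 ± 0.59 (adjusted p = 0.0438). For Hsd17b7 it was -1.27 ± 0.26 (adjusted p = 0.022), and Nsdhl at -1.04 ± 0.30 (adjusted p = 0.0672) did not pass. The calls of Acat2, Insig1 and Abca1 held in each of the 8 fits that left out a library. The call of Mvd was lost in 3 of them, that of Hsd17b7 in 6 and that of Soat2 in 7. The rich KO replicates differed little at Acat2, Insig1 and Abca1: their log2 ratio, replicate 1 over replicate 2, was -0.16 for Acat2, 0.05 for Insig1 and 0.02 for Abca1. For Sqle, Cyp51, Fdft1 and Dhcr7 the differences were 0.23, -0.16, -0.02 and 0.06 and were not called. Without KO rich replicate 1 they were 0.24, 0.33, 0.06 and -0.14, so those of Cyp51, Fdft1 and Dhcr7 changed sign. Over the 8 fits that left out a library, the response of Cyp51 ran from -1.57 to -0.78 in KO cells. In WT cells it ran from -1.11 to -1.06, inside the KO range, so the direction of its difference is not settled.

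In rich medium, 14 of the 30 genes were higher in KO cells than in WT cells and 1 was lower. The 14 are 46.7% of the genes, where 23.4% of all genes tested were called higher and 20.7% lower in KO cells, 44.1% in all. The median log2 fold change was 0.73 over the 30 genes and 0.00 over all genes tested. Of 17 synthesis enzymes 9 were higher and 0 lower, 7 of the 9 in the squalene and sterol part. Nsdhl (1.99 ± 0.22, adjusted p = 0.000448), Cyp51 (1.87 ± 0.24, adjusted p = 0.000875), Hsd17b7 (1.33 ± 0.18, adjusted p = 0.00126) and Sqle (1.33 ± 0.12, adjusted p = 0.000163) were higher in KO cells in every fit that left out a library. Without KO rich replicate 1 the value for Cyp51 was 1.39. Acat2 was higher by 0.46 ± 0.12 (adjusted p = 0.0175), a call lost in 4 of the 8 fits, and Mvd was not called (-0.01, adjusted p = 0.973). Sc5d, the lathosterol oxidase, was higher by 1.17 ± 0.28 (adjusted p = 0.0133), and by 0.58 without KO rich replicate 1. Idi1 was higher by 0.79 ± 0.18 (adjusted p = 0.0104), and by 0.47 without that library.

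Outside synthesis, Insig1 (1.41 ± 0.12, adjusted p = 0.000138), Stard4 (0.97 ± 0.13, adjusted p = 0.00116), Soat1 (1.67 ± 0.12, adjusted p = 7.05e-05) and Abca1 (1.03 ± 0.16, adjusted p = 0.002) were higher in rich KO cells. Abcg1 was higher as well, by 2.18 ± 0.53 (adjusted p = 0.0139), on few counts. The calls of Idi1, Fdft1 and Sc5d were lost without either rich WT library, and that of Abcg1 without KO rich replicate 2 or WT rich replicate 1. Srebf1 was the 1 gene lower in KO cells, by -2.08 ± 0.38 (adjusted p = 0.00444), and stood at -1.61 without KO rich replicate 1. Srebf2 itself was not called (-0.25 ± 0.36, adjusted p = 0.596, and 0.22 without that replicate).

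After starvation, 11 of the 30 genes were higher and 5 lower in KO cells than in WT cells. These are 36.7% and 16.7% of the genes, where 27.8% of all genes tested were called higher and 26.8% lower, 54.6% in all, so the count of higher genes was closer to the background than in rich medium. The median log2 fold change was -0.04 over the 30 genes and -0.02 over all genes tested. Sqle (1.56 ± 0.12, adjusted p = 5.63e-05), Cyp51 (1.72 ± 0.24, adjusted p = 0.000893), Nsdhl (0.95 ± 0.22, adjusted p = 0.00843), Fdps (1.04 ± 0.25, adjusted p = 0.00939) and Stard4 (0.57 ± 0.13, adjusted p = 0.00871) were higher in starved KO cells. Soat1 had the smallest p of the 30 genes, at 2.11 ± 0.12 (adjusted p = 1.94e-05). Mvd (-2.14 ± 0.22, adjusted p = 0.000246), Abca1 (-1.14 ± 0.16, adjusted p = 0.00101) and Acat2 (-0.97 ± 0.12, adjusted p = 0.000511) were lower in starved KO cells, as were Mylip (-0.56, adjusted p = 0.0381) and Soat2 (-0.68, adjusted p = 0.0289). Insig1 (-0.07 ± 0.12, adjusted p = 0.65) and Hsd17b7 (0.07, adjusted p = 0.78) were not called. Srebf2 (1.06 ± 0.36, adjusted p = 0.0404) and Insig2 (0.41 ± 0.15, adjusted p = 0.0458) were higher in KO cells, and these calls, with those of Mylip and Soat2, were lost in 6 of the 8 fits that left out a library. The higher calls of Msmo1 and Abcg1 were lost without any of the 4 starved libraries, and those of Fdps, Fdft1, Nsdhl and Stard4 in 1 to 3 fits.

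Fdft1, Sqle, Cyp51, Msmo1, Nsdhl, Stard4, Soat1 and Abcg1 were called higher in KO cells in both media. Of all genes tested, 23.4% were called higher in rich medium and 27.8% after starvation. The share of all genes called higher in both was not computed. Acat2 and Abca1 were higher in KO cells in rich medium and lower after starvation. The genes called in none of the 5 contrasts were Mvk, Lss, Tm7sf2, Ebp, Scap and Nr1h2. The starvation and genotype contrasts share libraries, so these calls are not independent of each other.

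**Figure D4:**
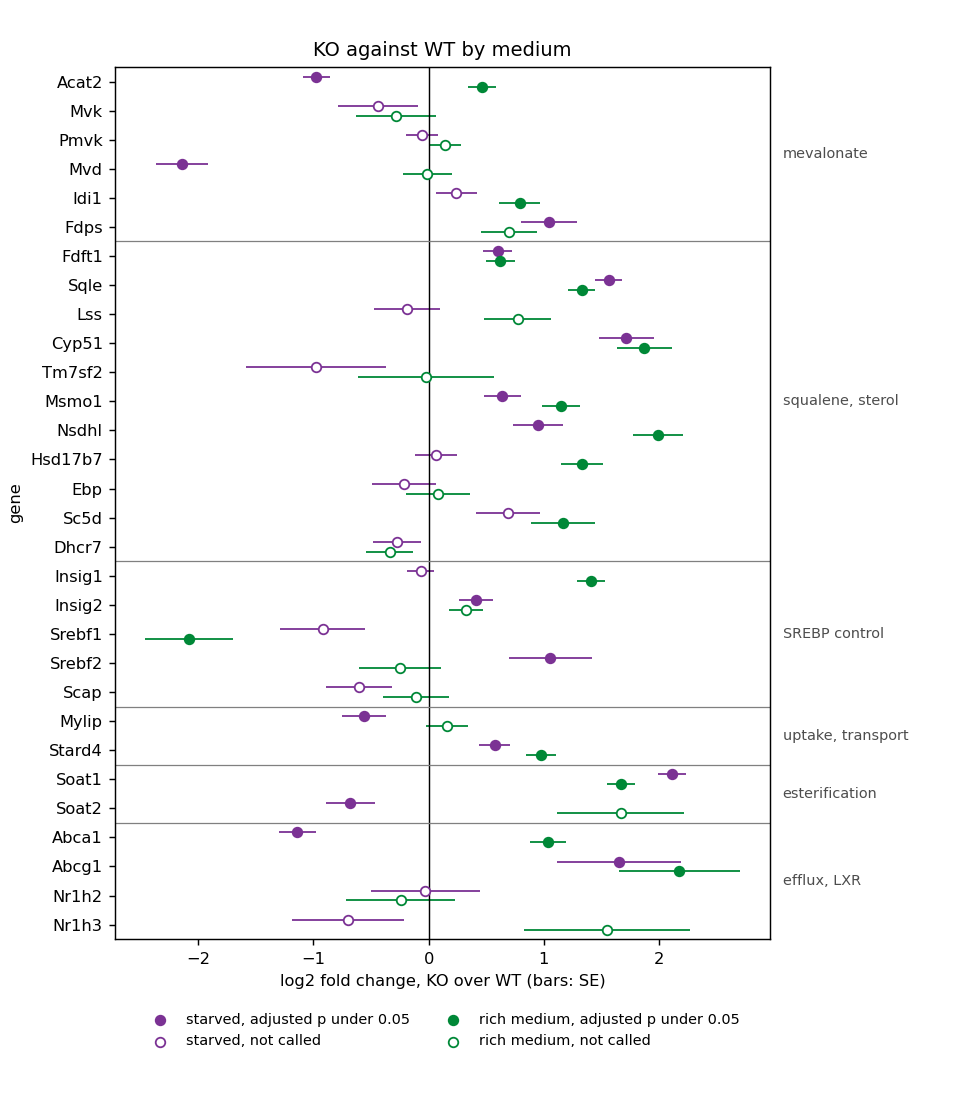
Log2 fold change of KO over WT cells with its SE for each of the 30 genes, after starvation and in rich medium. Filled points passed the adjusted p threshold of 0.05; Acat2, Insig1 and Abca1 lie right of 0 in rich medium and at or left of 0 after starvation, while Sqle, Cyp51 and Soat1 lie right of 0 in both.

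Neighbouring pathways were read from 4 lists of other genes, beside the 8.44% of all genes tested that rose and 9.77% that fell in KO cells and the 14.8% and 18% in WT cells. Several of these counts are near those shares, and most of them change when a single library is left out. The share of all genes called changes in those fits too, so the ranges given do not describe these lists alone. Of 13 genes of the isoprenoid branches that leave the mevalonate route, 2 rose and 0 fell in starved KO cells, and 2 rose and 1 fell in starved WT cells. With each library left out in turn the range was 0 to 5 rises and 0 to 3 falls in KO cells, and 1 to 7 and 1 to 2 in WT cells. The prenyltransferase subunits Rabggtb (0.58 in KO cells, 0.75 in WT cells) and Pggt1b (0.52 in KO cells, 0.90 in WT cells) rose in both. Fntb, the farnesyltransferase beta subunit, fell in WT cells (-1.67 ± 0.23, adjusted p = 0.00218). Of 14 genes of SREBP processing and degradation, 5 rose and 1 fell in each genotype. In KO cells 0 rose and 0 fell without either starved KO library, or in a fit of the 4 KO libraries alone, and in WT cells 1 rose and 0 fell without any 1 of the 4 WT libraries. Paqr3, which is known to tether SCAP to the Golgi, had 11.6 and 12.4 CPM in starved KO cells, 2.58 and 4.13 CPM in rich KO cells, 12.6 and 12.2 CPM in starved WT cells and 2.70 and 3.03 CPM in rich WT cells. It rose in both genotypes, by 1.78 ± 0.24 in KO cells (adjusted p = 0.00468) and 2.11 ± 0.24 in WT cells (adjusted p = 0.0011).

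Of 18 genes of sterol trafficking and lipoprotein receptors, 2 rose and 2 fell in starved KO cells, and 5 rose and 5 fell in starved WT cells. With each library left out in turn the range was 1 to 9 rises and 0 to 5 falls in KO cells, and 2 to 10 and 2 to 7 in WT cells. The receptor gene Lrp8 had 51.5 and 53.0 CPM in starved KO cells, 99.8 and 97.7 CPM in rich KO cells, 22.4 and 18.0 CPM in starved WT cells and 62.9 and 62.4 CPM in rich WT cells. It fell in both, by -0.92 ± 0.14 in KO cells (adjusted p = 0.00723) and -1.64 ± 0.15 in WT cells (adjusted p = 0.000506). Vldlr, the receptor for very low density lipoprotein, had 274 and 278 CPM in starved KO cells, 315 and 261 CPM in rich KO cells, 47.3 and 42.2 CPM in starved WT cells and 19.6 and 18.9 CPM in rich WT cells. Every KO library was above every WT library, and the responses differed by -1.28 ± 0.20 (adjusted p = 0.00834), since Vldlr rose in WT cells (1.22 ± 0.14, adjusted p = 0.00127). Of 15 LXR partners and targets tested, 0 rose and 1 fell in starved KO cells, and 1 rose and 3 fell in starved WT cells. The range with a library left out was 0 to 4 rises and 0 to 7 falls in KO cells, and 1 to 4 and 1 to 7 in WT cells. The desaturase gene Scd1, a target of both LXR and SREBP, fell in KO cells (-0.90 ± 0.13, adjusted p = 0.00584) and in WT cells (-1.54 ± 0.13, adjusted p = 0.000471). Abca5, a lysosomal transporter, rose in WT cells (1.09 ± 0.14, adjusted p = 0.00197), and the responses differed by -1.02 ± 0.20 (adjusted p = 0.0203).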

How the data were processed

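RNA-seq counts were used for 8 libraries in 4 groups of 2, grouped by sample title, and 4 ChIP-seq libraries are not analysed here. The deposited values are whole-number counts per RefSeq transcript. The submitters' processing notes name TopHat2 2.0.9, bedtools and the mm9 build. Not given in the sources used here are the strand and the handling of reads with several matches.

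For each symbol the transcript row with the most counts was kept (31055 transcripts, 23366 symbols). Genes were filtered with filterByExpr and scaled by TMM in edgeR 4.0.16 (R 4.3.3). A mean per group was fitted to all 8 libraries, and quasi-likelihood tests gave 5 contrasts, adjusted by Benjamini-Hochberg over 13882 genes at 0.05. The SE was the log2 fold change over the square root of F. CPM used TMM-scaled library sizes. The fit was tested on simulated counts with known changes. For the genotype difference in response it recovered 2.11% of 2-fold and 55.2% of 4-fold changes. In the other contrasts it recovered 12.1% to 25% of 2-fold and 76.3% to 87.5% of 4-fold changes. A gene not called may therefore still differ. Alternatives used DESeq2 1.42.0 and limma 3.58.1, among others. Gene coordinates and promoters are RefSeq GRCm38.p6, and were not mixed with mm9.

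The listed genes, other lists and rules were chosen with earlier results of these data known. Given in full were the 6 synthesis enzymes with the smallest adjusted p and all tested genes of the other roles; of other lists, at most 3 called genes per contrast were eligible to be named. Replicate numbers did not pair samples (correlations of deviations -0.026 to 0.063).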

Additional observations from a re-analysis of the deposited data

Results flagged for a closer look

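A test of the difference between the starvation responses, KO minus WT on the log2 scale, passed for 6 genes. The difference was -2.35 for Soat2, -2.17 for Abca1, -2.13 for Mvd, -1.48 for Insig1, -1.44 for Acat2 and -1.27 for Hsd17b7 (edgeR's quasi-likelihood test with Benjamini-Hochberg adjustment, adjusted p = 0.0438, 0.00225, 0.00684, 0.00299, 0.00324 and 0.022, in the same order). No other listed gene met this criterion. Abca1, Acat2 and Insig1 kept the call in every fit with a library left out, whereas Soat2 also lost it without the filter, with DESeq2, with limma-voom and with the replicate block.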

How the results depend on the processing

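Of the single-gene calls, 0 changed direction in the settings run, which were total counts or RLE for scaling, a stricter or no filter, DESeq2, limma-voom with quality weights, a replicate block, the 4 libraries compared, the mean of transcripts and each library left out. With limma-voom, 1 gene rose in KO starvation and 7 rose in WT starvation, where 9.5% and 67.7% of all genes were called. It called 11 lower in KO cells after starvation and 2 differences higher, where 80.5% and 15.9% of all genes were called. These shares count both directions. In fits of the 4 libraries compared, 0 rose and 0 fell in KO starvation and 7 rose in WT starvation. There 0% and 72.1% of all genes were called. In such fits 9 were higher in KO cells in rich medium and 11 lower after starvation, where 24.6% and 82.4% were called. DESeq2 called 1 difference higher, where 21.2% of all genes had a difference called in either direction. Leaving out each library gave 2 to 7 rises and 7 to 22 falls in KO starvation, 2 to 7 rises and 4 to 20 falls in WT starvation, 9 to 22 higher and 1 to 9 lower in rich KO cells, 4 to 13 higher and 3 to 12 lower in starved KO cells, and 0 to 7 higher and 3 to 15 lower differences. The highest numbers and shares came without a KO rich library, when the spread came from closer pairs and the lone library was assumed to vary like other groups. The replicate block gave 2 rises and 16 falls in KO starvation, 3 and 13 in WT starvation, 14 higher and 1 lower in rich KO cells, 9 and 4 in starved KO cells, and 0 and 5 differences. The share of all genes called was 15.2%, 29.7%, 41.8%, 53% and 10.7%, in the same order. The median log2 fold change of all genes in KO against WT cells after starvation was -0.14 with total counts, against -0.02 with TMM. At 8447014 counts, KO rich replicate 1 limits what can be said of Soat2, Abcg1 and Nr1h3.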
